A study of Mus musculus with 25 samples.

Results

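Integrins that activate transforming growth factor beta (TGF-beta) were followed in mouse lung after bleomycin. They are the alpha subunit Itgav and the beta subunits it pairs with, Itgb1, Itgb3, Itgb5, Itgb6 and Itgb8. They were taken as every probe set (a group of short DNA probes for a transcript on the array) annotated to a member's symbol alone. The rule found 20 of the 45101 probe sets of the array, for 6 of 18193 genes. Itgav had 5 probe sets, Itgb1 6, Itgb3 2, Itgb5 4, Itgb6 2 and Itgb8 1.

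Lung RNA of 25 female mice was hybridised, 1 array a mouse as titled. FP-KO mice lack FP, the prostaglandin F2α receptor made from Ptgfr, and had 4 arrays on each of the 3 days (0, 7 and 14). WT mice had 4 arrays on Day 0, 4 on Day 7 and 5 on Day 14. Mice of both genotypes were given 1 mg/kg bleomycin in 40 µl saline into the trachea on Day 0. Bleomycin damages lung tissue and is used to model fibrosis. The Day 0 mice are described as baseline, and the same dose is listed for their arrays. That listing does not show whether they were dosed before sampling. The sources used here give no strain or age and do not say which part of Ptgfr is deleted. P-values below set a difference between groups against the spread of arrays within groups, and treat the arrays as independent. The series asks how time courses in FP-KO lungs compare with those in WT lungs.

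TGF-beta is secreted in a latent form, folded inside a propeptide that is often tethered to the matrix or the cell surface. Alpha v integrins bind an arginine-glycine-aspartate (RGD) motif in that propeptide and release or expose the growth factor, by pulling or by bringing proteases near. Itgav encodes the shared alpha v chain and the beta chain decides where the receptor works: Itgb6 is largely restricted to epithelium and is induced on injury, and mice without it are known to be protected from bleomycin fibrosis. Itgb8 is found on epithelium, fibroblasts and some immune cells, Itgb3 on platelets, endothelium and macrophages, and Itgb5 and Itgb1 on many cells including fibroblasts. Itgb1 also pairs with many other alpha chains that bind collagen, laminin and fibronectin. Whole lung was measured, so fewer cells of a type and less RNA per cell cannot be told apart in any value given here.

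Sequences upstream of the start site show how the promoters of the beta chains differ in base composition. The RefSeq promoter table (GRCm38.p6) matched 5 of the 6 genes, all but Itgb3, and the 250 bases before the start are given 5′ to 3′ on the gene's strand. Capitals mark matches, on either strand, to the letters CAGAC (core of the Smad-binding element, bound by the factors that carry the TGF-beta signal) and GGGCGG (GC box), with no overlaps between them. Itgb6 lies at chr2:60598292-60722603 and its promoter at chr2:60722604-60722853, minus strand.
Itgb6: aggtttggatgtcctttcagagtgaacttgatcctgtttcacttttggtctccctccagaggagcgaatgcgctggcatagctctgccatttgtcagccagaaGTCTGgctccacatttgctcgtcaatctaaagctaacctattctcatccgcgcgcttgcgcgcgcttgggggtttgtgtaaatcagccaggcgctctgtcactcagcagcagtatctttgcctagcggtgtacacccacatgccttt
Itgb8 lies at chr12:119162803-119238276 and its promoter at chr12:119238277-119238526, minus strand.
Itgb8: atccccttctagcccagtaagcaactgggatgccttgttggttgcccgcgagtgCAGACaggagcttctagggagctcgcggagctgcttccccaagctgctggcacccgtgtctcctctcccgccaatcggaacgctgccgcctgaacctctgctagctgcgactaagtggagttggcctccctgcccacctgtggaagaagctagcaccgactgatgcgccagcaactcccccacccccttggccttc
Itgb1 lies at chr8:128685654-128733579 and its promoter at chr8:128685404-128685653, plus strand.
Itgb1: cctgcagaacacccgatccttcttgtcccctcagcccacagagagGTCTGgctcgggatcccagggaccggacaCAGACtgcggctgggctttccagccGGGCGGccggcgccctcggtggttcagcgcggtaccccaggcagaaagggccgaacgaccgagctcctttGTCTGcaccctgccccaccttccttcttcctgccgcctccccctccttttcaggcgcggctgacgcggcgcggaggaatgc
Itgb5 lies at chr16:33829665-33949338 and its promoter at chr16:33829415-33829664, plus strand.
Itgb5: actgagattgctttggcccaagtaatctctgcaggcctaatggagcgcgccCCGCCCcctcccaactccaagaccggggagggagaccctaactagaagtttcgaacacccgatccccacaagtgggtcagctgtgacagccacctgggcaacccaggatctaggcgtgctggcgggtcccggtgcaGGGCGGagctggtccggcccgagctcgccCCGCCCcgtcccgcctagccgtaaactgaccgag
The Itgb6 window is 52.0% G and C, near the median of 52.4% over 32536 promoters, while those of Itgb8 (62.4%), Itgb1 (68.0%) and Itgb5 (65.2%) are richer. CAGAC occurs 1 time in the Itgb6 and Itgb8 windows and 3 times in that of Itgb1, and 42.2% of all promoters hold it. GGGCGG occurs 3 times in the Itgb5 window and 1 time in that of Itgb1, and 33.0% of all promoters hold it. The Itgav window, at 64.4% G and C, holds neither, and none of the 5 holds TGANTCA (AP-1 site, where N is any base), which 6.73% of all promoters have. Itgav lies at chr2:83722303-83806917 and Itgb3 at chr11:104608000-104670476. The Itgav window, chr2:83724147-83724396 on the plus strand, lies within the Itgav span and not before it, unlike the other windows.

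Arrays had median intensities of 112.3 to 151.5 as deposited, and the lowest trimmed mean of any array was 500 after rounding. The number of arrays limits the precision. The FP-KO minus WT difference of Ptgfr was -2.86 on Day 0, -1.95 on Day 7 and -2.49 on Day 14 (log2). On the first principal component, 42.0% of the variance, FP-KO Day 14 No. 2 lay at -28.9 among the Day 0 arrays, and its 18S ribosomal RNA signal was 6339 against a median of 315.5 over all arrays. On the second component, 16.9% of the variance, FP-KO Day 14 No. 1 and 2 and WT Day 14 No. 1 to 3 stood apart from FP-KO No. 3 and 4 and WT No. 4 and 5. They are called the first and the second set of Day 14 arrays below, and no source used here says what sets them apart. For the integrin genes, calls that rest on these arrays are given with and without them below. Day 14 values of single probe sets, of other genes and of markers are given with all arrays only.

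All 6 genes were bright enough to be tested, among 12062 genes. In the text a gene rose, fell or was called where limma's Benjamini-Hochberg adjusted p over all genes tested was under 0.05, and each change is a log2 difference, followed by the fit's standard error after ±. In WT lungs on Day 7 against Day 0, 3 of the 6 rose (Itgav, Itgb6 and Itgb8) and none fell, where 35.1% of all genes were called and 17.1% rose. Normalized values of the Day 7 and Day 0 arrays did not overlap for 5 of the 6 genes, all but Itgb3, against 35.0% of all genes. In WT lungs on Day 14 against Day 0, 4 of the 6 rose (Itgb1, Itgb5, Itgb6 and Itgb8), where 38.7% of genes were called and 19.1% rose. For the same 4 the normalized values of the days did not overlap, against 28.5% of all genes. The median change of the 6 was 0.38 on Day 7 and 0.60 on Day 14, where the median of all genes was -0.01 both times.

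FP-KO lungs had 4 of the 6 genes called on Day 7 against Day 0, 3 higher (Itgav, Itgb6 and Itgb8) and 1 lower (Itgb3), where 23.3% of all genes were called, 12.6% higher and 10.7% lower. For 3 of the 6 (Itgb3, Itgb6 and Itgb8) the normalized values of the days did not overlap, against 26.5% of all genes. On Day 14 against Day 0 the limma fit called 0 of the 6 in FP-KO lungs, with 3 at an unadjusted p under 0.05, and 3.26% of all genes were called. On Day 14 against Day 7, 2 of the 6, Itgav and Itgb6, fell in FP-KO lungs, where 22.7% of all genes were called. In WT lungs the same comparison called 0 of the 6 (3 at an unadjusted p under 0.05) and 5.94% of all genes.

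**Figure D1:**
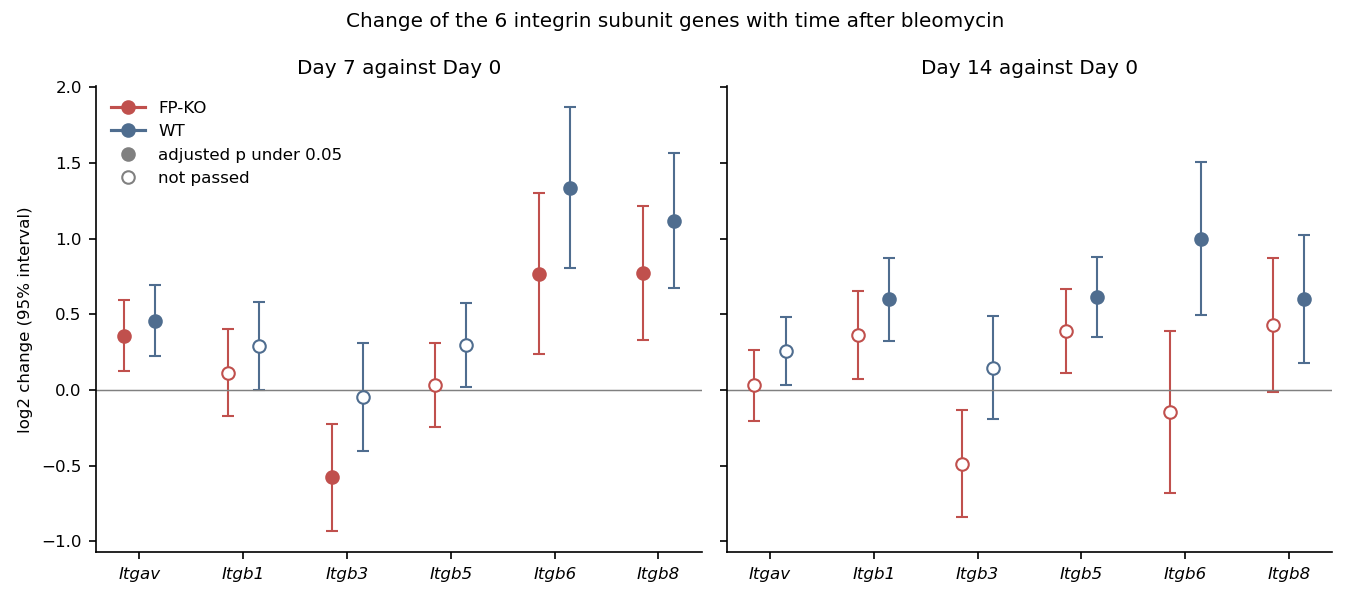
Log2 change against Day 0 with its 95% interval, for each of the 6 genes on Day 7 and Day 14, FP-KO left of WT, filled where the adjusted p is under 0.05. The Itgb6 change is 0.77 on Day 7 and -0.14 on Day 14 in FP-KO lungs, and 1.34 and 1.00 in WT lungs.

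Itgb6, the epithelial beta chain of alpha v beta 6, had the largest rise of the 6 in WT lungs on either day. In FP-KO lungs its intensity was 459.9, 567.8, 497.0 and 559.8 on Day 0, 1143.5, 1078.8, 790.5 and 591.8 on Day 7, and 462.2, 257.1, 648.1 and 707.6 on Day 14 (mice No. 1 to 4). In WT lungs it was 401.1, 447.0, 413.8 and 434.8 on Day 0, 1282.4, 1234.4, 931.4 and 868.0 on Day 7, and 831.0, 751.1, 691.6, 1123.0 and 1031.8 on Day 14 (No. 1 to 5). Every WT array of Day 7 and Day 14 lay above every WT Day 0 array, whereas on Day 14 the FP-KO arrays lay on both sides of the FP-KO Day 0 range. The FP-KO mean was 521.1 ± 51.7 on Day 0, 901.2 ± 257.1 on Day 7 and 518.8 ± 203.4 on Day 14 (SD, n = 4 each). The WT mean was 424.2 ± 20.6 on Day 0, 1079.1 ± 209.6 on Day 7 (SD, n = 4 each) and 885.7 ± 184.7 on Day 14 (SD, n = 5).

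In WT lungs Itgb6 rose by 1.34 ± 0.26 on Day 7, or 2.52-fold (adjusted p = 3.29e-04), and by 1.00 ± 0.24 on Day 14 (adjusted p = 0.00263). In FP-KO lungs it rose by 0.77 ± 0.26 on Day 7 (adjusted p = 0.0338) and its change on Day 14 was -0.14 ± 0.26 (adjusted p = 0.804). From Day 7 to Day 14 it fell by 0.91 in FP-KO lungs (adjusted p = 0.0157), against a change of -0.34 in WT lungs that did not pass (adjusted p = 0.392). Both WT rises were called with each of the 25 arrays left out in turn. The Day 7 rise in FP-KO lungs was called in 19 of those 25, and without FP-KO Day 7 No. 1 it was 0.64 (adjusted p = 0.117). The change from Day 7 to Day 14 in FP-KO lungs was -0.59 without FP-KO Day 14 No. 2 (adjusted p = 0.0858) and -0.38 with the second set of Day 14 arrays alone (adjusted p = 0.362). It was not called without FP-KO Day 7 No. 1 (-0.78, adjusted p = 0.0610) or No. 2 (-0.81, adjusted p = 0.0592).

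**Figure D2:**
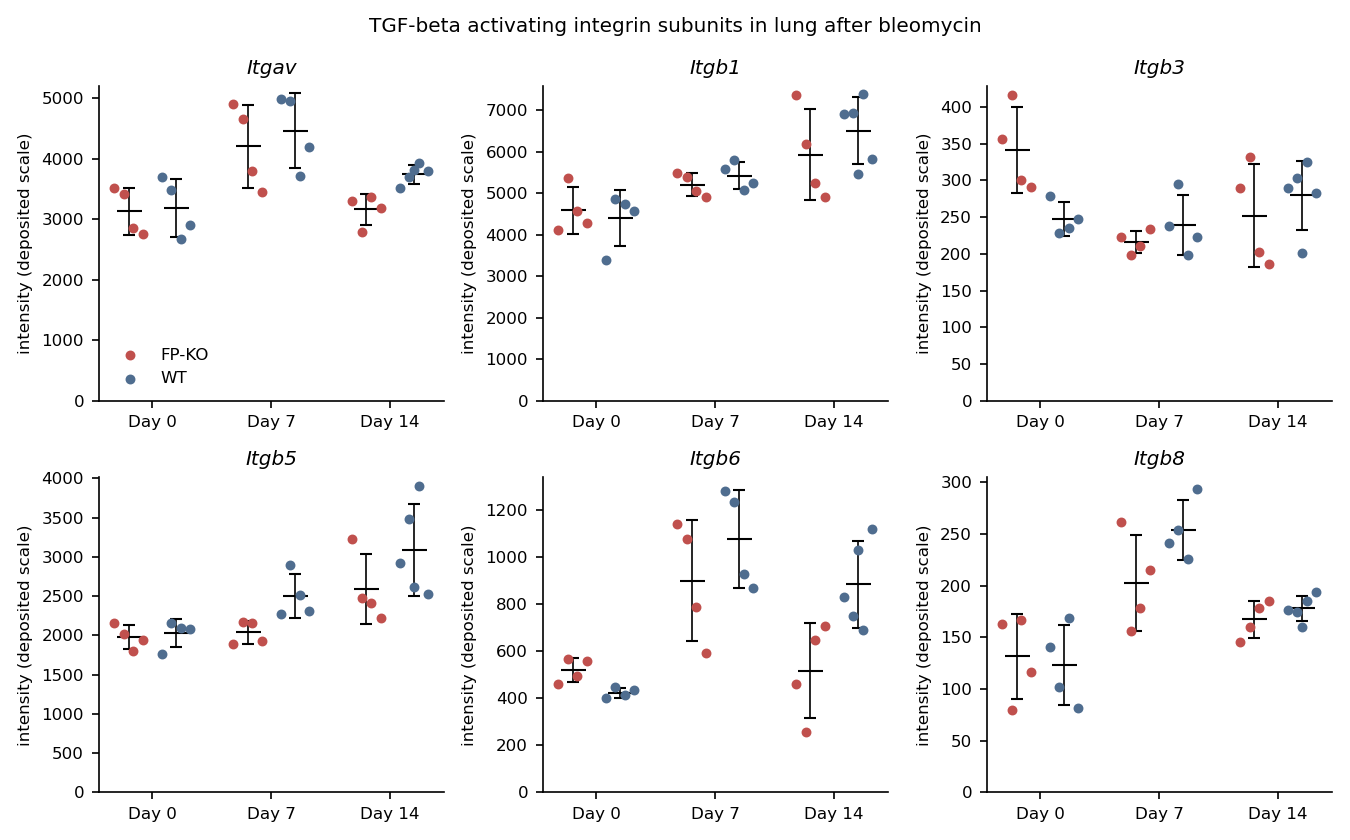
Deposited intensity (linear axis from 0) of the 6 genes in each of the 25 arrays, by day, with FP-KO left of WT. Points are arrays and bars are the group mean ± SD; for Itgb6 the FP-KO Day 14 arrays sit between 257.1 and 707.6 and the WT Day 14 arrays between 691.6 and 1123.0.

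Itgb8, the beta chain of alpha v beta 8, whose inner tail differs from those of the other beta chains, was read by a sole probe set. In FP-KO lungs its intensity was 163.2, 80.1, 167.1 and 116.5 on Day 0, 262.1, 156.2, 178.2 and 215.2 on Day 7, and 145.4, 159.7, 178.7 and 185.7 on Day 14. In WT lungs it was 140.4, 102.0, 168.8 and 81.8 on Day 0, 241.8, 253.6, 226.2 and 294.1 on Day 7, and 176.8, 174.2, 185.1, 193.6 and 160.4 on Day 14. All WT Day 7 arrays lay above all WT arrays of the other days, and the Day 0 arrays spread about as widely in FP-KO as in WT lungs. Itgb8 rose by 0.77 ± 0.21 in FP-KO lungs (adjusted p = 0.0118) and by 1.12 ± 0.21 in WT lungs (adjusted p = 3.05e-04) on Day 7. On Day 14 its change was 0.43 ± 0.21 in FP-KO lungs (adjusted p = 0.276), and it rose by 0.60 ± 0.20 in WT lungs (adjusted p = 0.0227). The WT Day 14 rise was 0.39 without WT Day 0 No. 4, the dimmest array of that group (adjusted p = 0.126). The FP-KO Day 7 rise was 0.54 without FP-KO Day 0 No. 2 (adjusted p = 0.0570) and 0.65 without FP-KO Day 7 No. 1 (adjusted p = 0.0535).

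Itgav, the alpha v chain common to these receptors, rose on Day 7 in both genotypes. In FP-KO lungs its intensity was 3510.0, 3413.5, 2854.3 and 2751.9 on Day 0, 4900.4, 4663.5, 3795.4 and 3450.7 on Day 7, and 3299.9, 2788.8, 3370.9 and 3192.4 on Day 14. In WT lungs it was 3700.4, 3482.7, 2679.5 and 2902.7 on Day 0, 4986.6, 4957.4, 3720.3 and 4187.7 on Day 7, and 3508.8, 3697.4, 3928.3, 3792.2 and 3809.3 on Day 14. On Day 14 every FP-KO array lay below every WT array, as for 11.0% of all genes, while on Day 0 and Day 7 the genotypes overlapped. In each Day 0 and Day 7 group, No. 1 and 2 lay above No. 3 and 4, and no source used here says why. On Day 7 Itgav rose by 0.36 ± 0.11 in FP-KO lungs (adjusted p = 0.0254) and by 0.46 ± 0.11 in WT lungs (adjusted p = 0.00311). By Day 14 it fell by 0.33 from its Day 7 level in FP-KO lungs (adjusted p = 0.0417). In WT lungs the change from Day 7 was -0.20 (adjusted p = 0.242), and the change from Day 0, 0.26 ± 0.11, did not pass (adjusted p = 0.0617). That change from Day 0 was called with all Itgav probe sets averaged (0.48, adjusted p = 0.00691), with array weights (0.30, adjusted p = 0.0156), with trend and robust eBayes (adjusted p = 0.0480), with the mouse number as a block (adjusted p = 0.0450) and without WT Day 0 No. 1 (0.33, adjusted p = 0.0319). The FP-KO change from Day 7 was -0.08 with all probe sets averaged (adjusted p = 0.715) and -0.29 with the second set of Day 14 arrays alone (adjusted p = 0.247). Nor did it pass with the first set alone (-0.36, adjusted p = 0.0514), a common median (-0.47, adjusted p = 0.0674) or array weights (-0.31, adjusted p = 0.0756). The WT Day 7 rise was called with each array left out in turn, the FP-KO rise in 21 of 25 (0.28 without FP-KO Day 7 No. 1, adjusted p = 0.111) and the FP-KO fall in 20 of 25 (change -0.24 without FP-KO Day 7 No. 1, adjusted p = 0.158).

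Itgb1, which joins alpha v and most other matrix-binding alpha chains, and Itgb5, of alpha v beta 5, were called in WT lungs on Day 14 and not on Day 7 on the probe set that stands for each gene. In FP-KO lungs Itgb1 intensity was 4115.3, 5376.2, 4565.7 and 4289.1 on Day 0, 5494.4, 5397.7, 5049.4 and 4901.3 on Day 7, and 7366.8, 6195.2, 5238.1 and 4918.4 on Day 14. In WT lungs it was 3401.2, 4864.6, 4745.6 and 4564.4 on Day 0, 5575.9, 5806.0, 5071.8 and 5245.7 on Day 7, and 6904.0, 6936.3, 7384.3, 5831.1 and 5474.0 on Day 14. The WT arrays of Day 7 and of Day 14 all lay above those of Day 0, and in FP-KO lungs the days overlapped. Itgb1 changed by 0.12 ± 0.14 in FP-KO lungs (adjusted p = 0.585) and by 0.29 ± 0.14 in WT lungs (adjusted p = 0.113) on Day 7, neither of which passed. On Day 14 it changed by 0.37 ± 0.14 in FP-KO lungs (adjusted p = 0.152) and rose by 0.60 ± 0.13 in WT lungs (adjusted p = 0.00115).

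Itgb5 in FP-KO lungs was at 2163.6, 2022.7, 1795.7 and 1938.0 on Day 0, 1884.9, 2173.6, 2158.3 and 1935.1 on Day 7, and 3233.9, 2481.1, 2417.4 and 2220.4 on Day 14. In WT lungs it was at 1762.7, 2161.9, 2093.8 and 2080.3 on Day 0, 2278.5, 2895.5, 2517.3 and 2308.6 on Day 7, and 2926.8, 3480.3, 3904.6, 2529.8 and 2622.9 on Day 14. On Day 14 all arrays of either genotype lay above the Day 0 arrays of that genotype. The change on Day 7 was 0.03 ± 0.13 in FP-KO lungs (adjusted p = 0.880) and 0.30 ± 0.13 in WT lungs (adjusted p = 0.0852). On Day 14 the change was 0.39 ± 0.13 in FP-KO lungs (adjusted p = 0.109), and Itgb5 rose by 0.62 ± 0.13 in WT lungs (adjusted p = 5.85e-04).

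The Day 14 values of Itgb1 and Itgb5 differed between the sets of Day 14 arrays in both genotypes. With the first set alone, Itgb1 rose by 0.60 in FP-KO lungs and 0.75 in WT lungs, and Itgb5 by 0.56 in FP-KO lungs and 0.79 in WT lungs. With the second set alone, Itgb1 changed by 0.13 in FP-KO lungs (adjusted p = 0.700) and 0.38 in WT lungs (adjusted p = 0.0453). Itgb5 then changed by 0.23 in FP-KO lungs (adjusted p = 0.411) and 0.35 in WT lungs (adjusted p = 0.0518). Without the 6 arrays whose 18S signal is over 4 times the median, the WT Day 14 change of Itgb1 was 0.36 (adjusted p = 0.0874). The part of the set or of RNA quality in these rises was not tested. Itgb6 went the other way between the sets: its WT Day 14 rise was 0.77 with the first set and 1.34 with the second.

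Itgb3, the beta chain of the platelet and endothelial receptors, was at 356.4, 416.7, 301.0 and 291.1 in FP-KO lungs on Day 0, 223.5, 198.7, 210.3 and 233.6 on Day 7, and 289.2, 331.2, 202.2 and 185.8 on Day 14. In WT lungs it was at 279.4, 228.1, 234.8 and 247.6 on Day 0, 237.3, 295.1, 199.0 and 223.4 on Day 7, and 289.0, 302.6, 324.8, 282.2 and 200.8 on Day 14. Every FP-KO Day 0 array lay above every FP-KO Day 7 array, and in WT lungs the days overlapped. In FP-KO lungs Itgb3 fell by 0.58 on Day 7 (SE 0.17, adjusted p = 0.0183), against a change of -0.05 ± 0.17 in WT lungs (adjusted p = 0.868). The FP-KO fall was not called without FP-KO Day 0 No. 1 (-0.53, adjusted p = 0.0528) or No. 2 (-0.48, adjusted p = 0.0682), or without the arrays of high 18S (-0.60, adjusted p = 0.0666). When both Itgb3 probe sets were averaged it was -0.16 (adjusted p = 0.613). The second, 1421511_at, was too dim to be tested and averaged 71.5 ± 16.0 on Day 7 and 64.8 ± 19.3 on Day 0 in FP-KO lungs (SD, n = 4 each), so the fall is given for the brighter probe set only. The FP-KO change on Day 14, -0.49 ± 0.17, did not pass (adjusted p = 0.120), and that of WT lungs was 0.15 ± 0.16 (adjusted p = 0.497). The FP-KO change was called without FP-KO Day 14 No. 2 (-0.61, adjusted p = 0.0461), with the second set of Day 14 arrays alone (-0.80, adjusted p = 0.0213), with array weights (-0.64, adjusted p = 0.0141) and with the mouse number as a block (-0.49, adjusted p = 0.0299). On Day 0 the FP-KO minus WT difference of Itgb3 was 0.43 ± 0.17 (unadjusted p = 0.0193, adjusted p = 1 in limma), with Day 0 means of 341.3 ± 57.9 in FP-KO and 247.5 ± 22.8 in WT (SD, n = 4 each).

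FP-KO and WT lungs were then compared on each day. On Day 0 and on Day 7 limma called 0 of the 6 genes, each time with 1 at an unadjusted p under 0.05, and 0.0166% of all genes on either day. On Day 14 it called 1 of the 6, Itgb6, lower in FP-KO lungs, where 10.5% of all genes were called and 5.64% were lower. The Itgb6 difference was -0.86 ± 0.24 (95% interval -1.36 to -0.35, adjusted p = 0.0273), or 0.552 of the WT level, with 3 of the 4 FP-KO arrays below the lowest WT array. Itgav differed by -0.23 (adjusted p = 0.173), Itgb5 by -0.24 (adjusted p = 0.233), Itgb3 by -0.20 (adjusted p = 0.472), Itgb1 by -0.15 (adjusted p = 0.532) and Itgb8 by -0.14 (adjusted p = 0.711), none of which passed. The median difference of the 6 was -0.19 on Day 7 and -0.22 on Day 14, beside 0.00 over all genes.

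FP-KO Day 14 No. 2 was the lowest of its group for Itgb6, at 257.1. Without it the Itgb6 difference was -0.53 (adjusted p = 0.161), and without WT Day 14 No. 4, the highest WT array, it was -0.76 (adjusted p = 0.0641). Within the first set of Day 14 arrays the difference was -1.16 (adjusted p = 0.00587), and within the second it was -0.67 (adjusted p = 0.392). With the set as a term in the fit it was -0.94 (adjusted p = 0.00308). Without the arrays of high 18S it was -0.68 (adjusted p = 0.209). With arrays weighted by how closely their values followed the group means, and not by a measure of RNA quality, it was -0.40 (adjusted p = 0.143). With the mouse number as a block, which in effect leaves out WT Day 14 No. 5, it was -0.79 (adjusted p = 0.0651). FP-KO stayed below WT under each of these, and the call rests on FP-KO Day 14 No. 2 among others. With arrays weighted, Itgb1 (-0.37, adjusted p = 0.0236), Itgb3 (-0.45, adjusted p = 0.0249) and Itgb5 (-0.42, adjusted p = 0.0120) were called lower in FP-KO lungs.

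**Figure D3:**
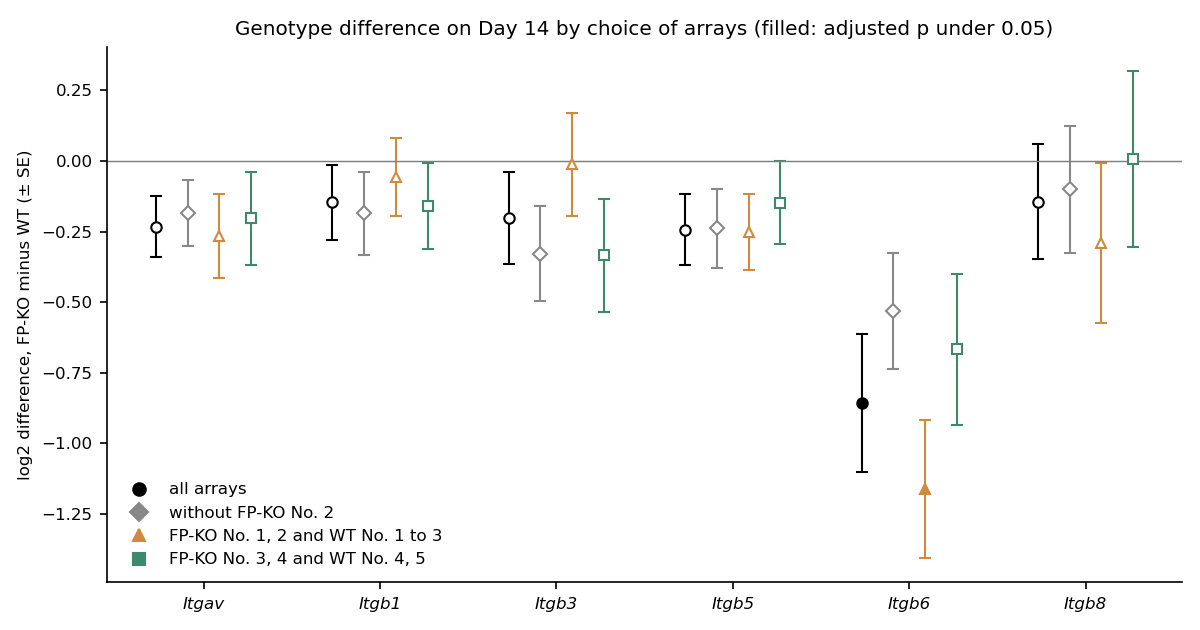
FP-KO minus WT log2 difference on Day 14 of the 6 genes with bars of ± SE, with all arrays, without FP-KO Day 14 No. 2, and within each set of Day 14 arrays. Filled points have an adjusted p under 0.05, and the Itgb6 difference is -0.86 with all arrays and -0.53 without FP-KO Day 14 No. 2.

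Whether the change over time differed between the genotypes was tested as an interaction. For Day 7 from Day 0 limma called 0 of the 6 (1 at an unadjusted p under 0.05) and 0% of all genes. For Day 14 from Day 0 it called 0 of the 6 (2 at an unadjusted p under 0.05) and 3.12% of all genes. Itgb6 had an interaction of -1.14 ± 0.35 (adjusted p = 0.0736) and Itgb3 of -0.64 ± 0.24 (adjusted p = 0.136). The Itgb6 value was called within the first set of Day 14 arrays (-1.45, adjusted p = 0.0103) and was -0.82 without FP-KO Day 14 No. 2 (adjusted p = 0.164). For Day 14 from Day 7 limma called 0 of the 6, with 0 at an unadjusted p under 0.05, and 0.00829% of all genes. Other settings called the Day 14 from Day 0 interaction. Fits with the number as a block in effect leave out WT Day 14 No. 5, the only mouse of that number. With the mouse number as a block, Itgb3 was called (-0.74, adjusted p = 0.0229), and with the block within a day Itgb3 (-0.74, adjusted p = 0.0407) and Itgb6 (-1.07, adjusted p = 0.0328) were. With array weights Itgb3 was called (-0.91, adjusted p = 0.0102).

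Of the 20 probe sets, 14 were bright enough to be tested among 21403, and the other 6, of Itgav (3), Itgb1 (2) and Itgb3 (1), did not exceed the array median in any array. In WT lungs 8 of the 14 rose on Day 7, where 15.1% of all probe sets did. On Day 14, 10 rose and 1 fell, where 19.2% of all probe sets rose and 17.2% fell. In FP-KO lungs 5 rose and 1 fell on Day 7, where 10.2% rose and 8.10% fell, and 0 were called by limma on Day 14 (8 at an unadjusted p under 0.05), where 2.14% were. On Day 14 2 of the 14, both of Itgb6, were lower in FP-KO than in WT lungs, where 4.01% of all probe sets were. Both Itgb6 probe sets moved alike, and since they were read on the same arrays they are not independent of each other. The second, 1432281_a_at, was at 423.6, 209.1, 590.6 and 526.1 in FP-KO lungs on Day 14, against 676.3, 787.0, 594.1, 957.7 and 805.6 in WT lungs. All 4 FP-KO arrays lay below all 5 WT arrays, narrowly (590.6 against 594.1). The share of all probe sets parted in this way is not given here, and among all genes it was 11.0%. The difference was -0.89 ± 0.27 (adjusted p = 0.0438 in limma over probe sets). It includes FP-KO Day 14 No. 2, at 209.1, without which the gene's difference was -0.53 (adjusted p = 0.161). It had risen on Day 7 by 0.88 ± 0.28 in FP-KO lungs (adjusted p = 0.0333) and 1.54 ± 0.28 in WT lungs (adjusted p = 2.5e-04).

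Probe sets of a gene differed most for Itgb1. Probe set 1452545_a_at, which stands for the gene, rose with 1426918_at in WT lungs on Day 14 (0.60 and 0.92). On Day 7 1426918_at also rose in WT lungs, by 0.61 ± 0.19 (adjusted p = 0.0206), against a change of 0.29 on the first that did not pass. On Day 14 1438119_at fell in WT lungs by 1.95 (adjusted p = 0.00841). Its intensities on Day 14 were 181.7, 1484.0, 512.5 and 826.7 in FP-KO lungs, against 348.3, 540.4, 155.0, 123.0 and 175.1 in WT lungs. On Day 0 they were 856.6, 719.3, 469.5 and 311.4 in FP-KO lungs, against 1150.6, 1723.9, 557.0 and 580.7 in WT lungs. FP-KO Day 14 No. 2 was the highest of its group on it and lay within the WT Day 0 range. With it in the average, the WT Day 14 change of Itgb1 was 0.03 when all its probe sets were averaged (adjusted p = 0.903), and a rise of Itgb1 is therefore given for the 2 brightest probe sets only.

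All 4 probe sets of Itgb5 rose in WT lungs on Day 14, by 0.38 to 0.68. On Day 7, 2 of them rose in WT lungs (1456133_x_at by 0.45 and 1456195_x_at by 0.28). The dimmer Itgav probe set that was tested, 1421198_at, rose by 0.74 ± 0.24 in FP-KO lungs (adjusted p = 0.0350) and by 0.86 ± 0.24 in WT lungs (adjusted p = 0.00925) on Day 7. On Day 14 it rose by 1.07 ± 0.23 in WT lungs (adjusted p = 0.00105), where the brighter Itgav probe set did not pass. Its WT Day 14 intensities were 623.3, 744.3, 669.2, 396.7 and 331.8, so the first set of arrays was higher than the second. Probe sets lie in different parts of a transcript and can read different isoforms, which was not tested.

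**Figure D4:**
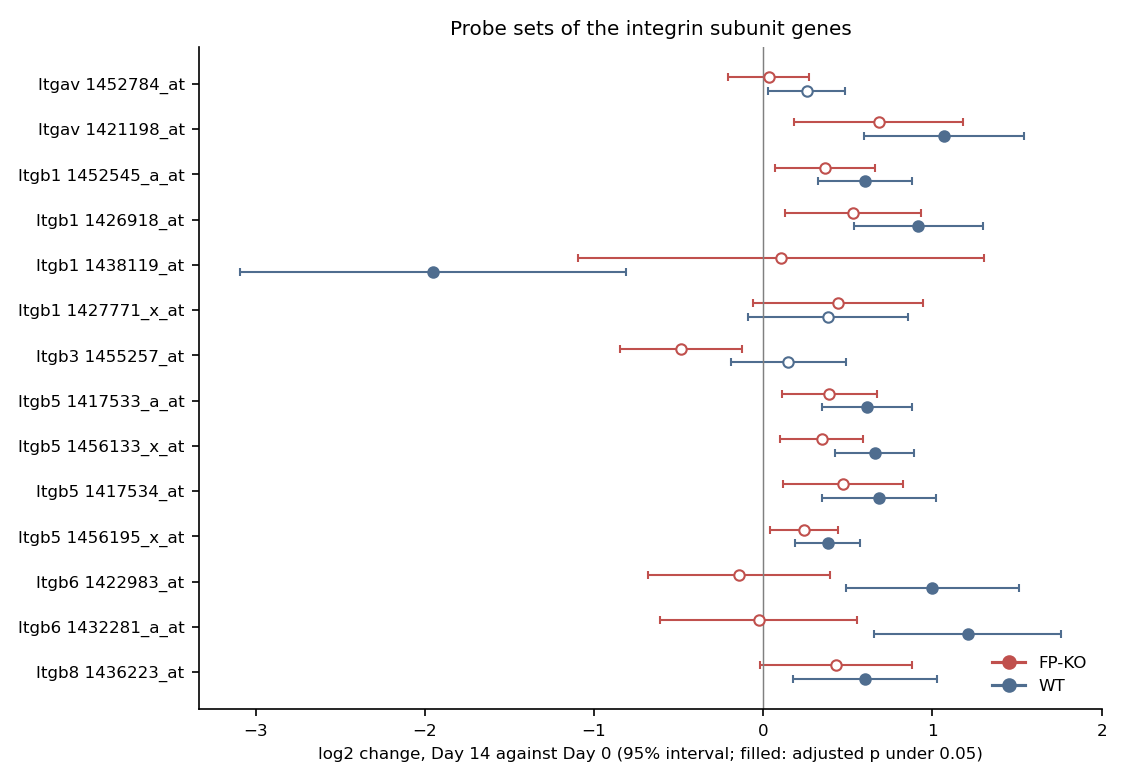
Log2 change on Day 14 against Day 0 of the 14 tested probe sets with 95% intervals, FP-KO above WT, filled where the adjusted p is under 0.05. In WT lungs 1438119_at of Itgb1 lies at -1.95, opposite to the gene's other probe sets.

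Across the 25 arrays the 6 genes fell into a pair and a trio by likeness of level, given as a description, since the points share groups, days and scaling. Itgb1 and Itgb5 correlated at r = 0.857 over all arrays and 0.694 after the group means were taken off. Values within groups still hold the Day 14 sets, between which Itgb1 and Itgb5 shifted alike and Itgb6 the other way. They also hold the mouse number: on Day 7 both Itgav and Itgb6 were higher in No. 1 and 2 than in No. 3 and 4, in either genotype. The part of the sets or of the number in these correlations was not tested. Itgav correlated with Itgb6 at 0.810 (0.494 within groups) and with Itgb8 at 0.664 (0.152 within groups). Itgb6 and Itgb8 correlated at 0.626 over all arrays and 0.069 within groups, so their likeness lies between groups. The highest r of Itgb3 with any of the other 5 was 0.165 over all arrays, and within groups it correlated with Itgav at 0.457, with Itgb5 at 0.453 and with Itgb1 at 0.436.

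**Figure D5:**
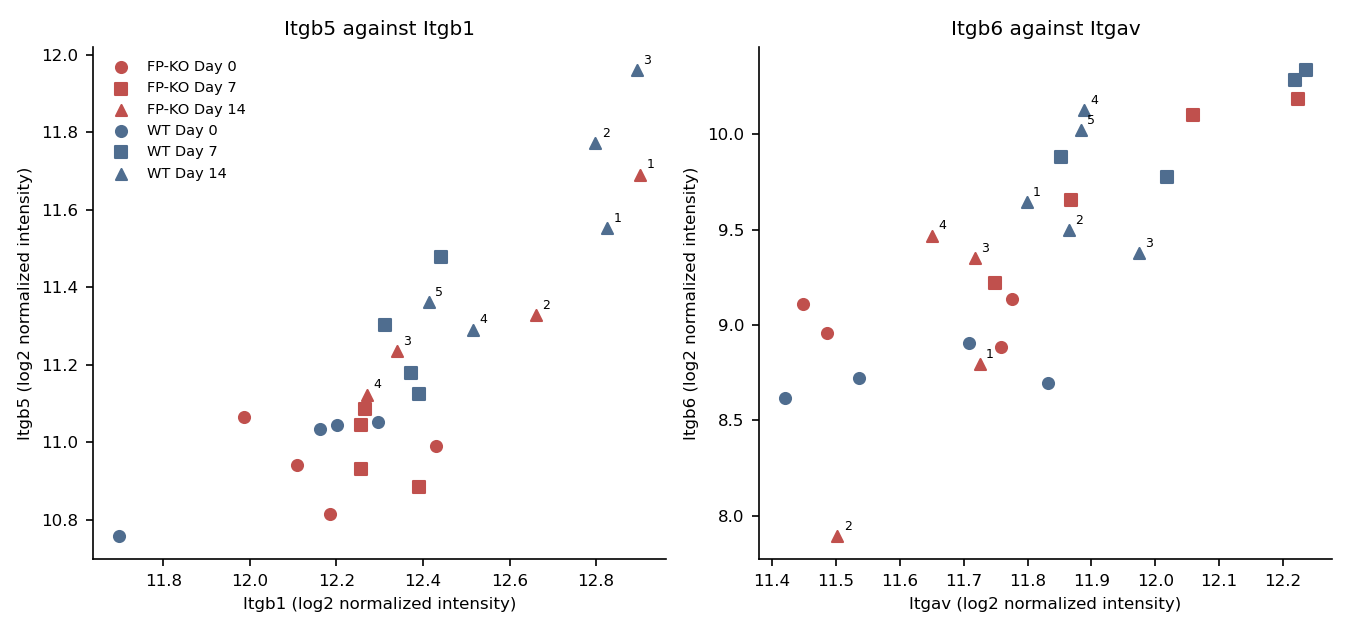
Log2 normalized intensity of Itgb5 against Itgb1 and of Itgb6 against Itgav in the 25 arrays, coloured by genotype and shaped by day, with Day 14 arrays numbered by mouse. Over all arrays r is 0.857 and 0.810, and FP-KO Day 14 No. 2 has the lowest Itgb6.

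For each gene the tested genes with the highest r over the 25 arrays were listed, again as a description. Nearest to Itgb6 were Cox19 (r = 0.949), Nmt1 (0.949) and Prune2 (0.944), and nearest to Itgav the epithelial membrane protein gene Emp1 (0.925), Incenp (0.921) and S100a10 (0.917). Itgb5 lay nearest to the acid sphingomyelinase gene Smpd1 (0.953), Sidt2 (0.939) and Ptk7 (0.925), and Itgb1 to Qsox1 (0.915), Ugcg (0.913) and Arpc4 (0.912). Itgb8 lay nearest to Gpr176 (0.880), Gpr85 (0.855) and Zgrf1 (0.850). Itgb3 had the lowest likeness, with Gpr4 (0.796), Zmiz1 (0.757) and the endothelial cadherin gene Cdh5 (0.751).

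Of 10 tested alpha chains other than Itgav, 2 rose and 1 fell in WT lungs on Day 7, and 3 rose and 1 fell on Day 14. These shares are near the 35.1% and 38.7% of all genes called. Itga5, the alpha chain of the fibronectin receptor, rose by 1.10 ± 0.32 on Day 7 and 1.74 ± 0.30 on Day 14 in WT lungs. In FP-KO lungs its changes were 0.34 (adjusted p = 0.464) and 1.05 (adjusted p = 0.0737). Itga8, a partner of Itgb1 that also binds latent TGF-beta, fell in WT lungs by 0.86 and 0.78 on those days. In FP-KO lungs it fell by 0.71 on Day 7, and on Day 14 it was higher in FP-KO than in WT lungs by 0.59 ± 0.10 (adjusted p = 0.00144). Of 2 tested beta chains outside the set, the leukocyte chain Itgb2 was lower in FP-KO than in WT lungs on Day 14 by 0.59 on the log2 scale (difference -0.59, adjusted p = 0.0449).

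Of 8 tested genes for TGF-beta and the proteins that hold it latent, 5 rose and 1 fell in WT lungs on Day 7, and 5 rose on Day 14. In FP-KO lungs 1 rose and 1 fell on Day 7 and 2 rose on Day 14. Of all genes, 35.1% and 38.7% were called on these days in WT lungs, and 23.3% and 3.26% in FP-KO lungs. Ltbp2, a matrix relative of the proteins that tether latent TGF-beta, rose in WT lungs by 1.50 ± 0.21 and 2.21 ± 0.20, and was lower in FP-KO lungs on Day 14 (difference -0.99 ± 0.20, adjusted p = 0.00351). Tgfb1 rose in WT lungs by 0.49 ± 0.14 and 0.83 ± 0.13, and its Day 14 difference between genotypes was -0.39 (adjusted p = 0.0564). Tgfb3, whose propeptide also carries the RGD motif, was lower in FP-KO lungs on Day 14 (difference -0.46 ± 0.11, adjusted p = 0.0129). The list's median difference on Day 14 was -0.28.

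Of 5 tested genes for activators that are not integrins, 4 rose in WT lungs on Day 7, where 17.1% of all genes rose. On Day 14, where 5.64% of all genes were lower in FP-KO than in WT lungs, 3 of the 5 were lower. These were thrombospondin 1, Thbs1 (difference -1.17 ± 0.22, adjusted p = 0.00283), the membrane protease Mmp14 (-1.16 ± 0.16, adjusted p = 4.28e-04) and the gelatinase Mmp2 (-0.59 ± 0.19, adjusted p = 0.0445). Of 7 tested RGD ligands, 3 were lower in FP-KO lungs on Day 14, tenascin C, Tnc (-2.03 ± 0.37), Ccn1 (-0.91 ± 0.26) and fibronectin, Fn1 (-0.77 ± 0.16). Vtn, the gene of vitronectin, the ligand of alpha v beta 5 and alpha v beta 3, fell in WT lungs by 0.82 on Day 7 and 0.80 on Day 14. Of 12 tested adaptors that link integrins to actin, 1 rose and 4 fell in WT lungs on Day 7, and 5 fell on Day 14. These shares are near the 35.1% and 38.7% of all genes called. The tensin gene Tns1 fell by 0.94 and 0.86, and the leukocyte kindlin gene Fermt3 rose by 0.59 on Day 7.

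Downstream, 3 of 8 tested genes for TGF-beta receptors and Smad factors rose and 3 fell in WT lungs on Day 7. Of all genes 35.1% were called there. The type I receptor gene Tgfbr1 rose by 0.51 ± 0.10 and the co-receptor gene Tgfbr3 fell by 0.96 on the log2 scale. Of 8 tested target genes, 5 rose and 1 fell in WT lungs on Day 7. On Day 14 4 of them were lower in FP-KO than in WT lungs, where 5.64% of all genes were. These were Col1a1 (-1.21 ± 0.23), Pmepa1 (-0.64 ± 0.14), Col3a1 (-0.50 ± 0.15) and Tgfbi (-0.47 ± 0.15), all FP-KO minus WT. In the same lists Tgfbr3 was higher in FP-KO lungs (0.61 ± 0.15, adjusted p = 0.0120).

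Markers of the cells that carry these integrins moved as well. Of 5 markers of injured transitional epithelium, all 5 rose in FP-KO and in WT lungs on Day 7. Of all genes 12.6% and 17.1% did. On Day 14 against Day 0 limma called 0 of the 5 in FP-KO lungs (3 at an unadjusted p under 0.05) and all 5 rose in WT lungs, with median changes of 0.56 and 1.43. Of all genes 3.26% were called in FP-KO lungs and 19.1% rose in WT lungs. Between genotypes 1 of the 5, Krt8, was lower in FP-KO lungs on Day 14, where 5.64% of all genes were. All 5 had an unadjusted p under 0.05 in limma, and the median difference was -0.98. The squamous envelope gene Sprr1a rose on Day 7 by 3.72 ± 0.42 in FP-KO lungs and 4.19 ± 0.42 in WT lungs. The summed intensity of the 5 on Day 14 was 15549, 10437, 16639 and 16952 in FP-KO lungs, against 18751, 18389, 18077, 18769 and 18597 in WT lungs. The lowest sum was that of FP-KO Day 14 No. 2, the array with the lowest Itgb6 of its group. Of 6 general epithelial markers, 2 were lower in FP-KO lungs on Day 14 (Krt8, difference -0.43, and Krt7, difference -0.31). Krt8 is in both lists. The sum of the 6 was 22914 to 25107 in FP-KO lungs, against 25523 to 29700 in WT lungs. The part of epithelial cell number in the Itgb6 difference was not tested.

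Platelets carry Itgb3, and of 6 platelet and megakaryocyte markers 1 fell on Day 7 and 5 on Day 14 in FP-KO lungs. In WT lungs 4 of the 6 fell on Day 7 and 5 on Day 14. Their summed intensity on Day 7 was 3294 to 5016 in FP-KO lungs, against 2485 to 3294 in WT lungs, and on Day 0 it was 4136 to 5580 in FP-KO lungs and 4119 to 5478 in WT lungs. Endothelial markers summed to 14216 to 17554 in FP-KO lungs and 13671 to 15246 in WT lungs on Day 7, and on Day 0 to 21191 to 23056 in FP-KO lungs and 19711 to 21977 in WT lungs. Macrophages also carry alpha v integrins, and of 7 macrophage markers 6 rose in FP-KO lungs and 7 in WT lungs on Day 7, and 5 of 7 were lower in FP-KO lungs on Day 14. Of 6 cardiac muscle markers 5 were higher in FP-KO than in WT lungs on Day 14, and they summed to 12393 to 22360 in FP-KO lungs, against 8951 to 10923 in WT lungs, with 22360 in FP-KO Day 14 No. 2. On Day 0 the cardiac sum was 14547 to 21715 in FP-KO lungs and 21569 to 26461 in WT lungs. On Day 14, 1 of 6 fibroblast markers was higher and 2 were lower in FP-KO than in WT lungs, and 1 of 6 alveolar type 1 markers was higher. Limma then called 0 of 5 alveolar type 2, 0 of 5 smooth muscle and 0 of 6 dendritic cell markers, each with 0 at an unadjusted p under 0.05. No marker of these lists was at the floor on Day 7 or Day 14, and the part of any of these cells in the integrin values was not tested. Of all genes, 23.3% were called in FP-KO lungs and 35.1% in WT lungs on Day 7 against Day 0. On Day 14 against Day 0 these shares were 3.26% and 38.7%, and between genotypes on Day 14 the share was 10.5%.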

How the data were processed

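Per the labels' protocols, total lung RNA was extracted with Sepasol, and biotin-labelled cRNA was hybridised to Affymetrix mouse 430 2.0 arrays. The authors deposited linear intensity values, 1 per probe set and array. Once the outer 2% at either side was dropped, the lowest mean of any array was 500 after rounding. No source used here names their software. The deposited intensities were floored at 24.3 (the 20th percentile) and put on the log2 scale, where array medians spanned 0.432. This exceeds a limit of 0.3, and quantile normalization followed. Of 45101 probe sets, those for controls (64), for several symbols (932) or with no symbol given (9160) were left out. Of the other 34945, 34741 had a symbol that matched the RefSeq table (GRCm38.p6) by gene number.

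Each gene was read by its brightest probe set on average, and was tested when 4 arrays or more had it over their median (12062 of 18193). The same rule left 21403 probe sets for a fit of their own. Both fits used limma 3.58.1 in R 4.3.3 (6 group means over 25 arrays, 12 contrasts, eBayes, Benjamini-Hochberg), with no covariate. Only the gene fit was tried on simulated data, with independent noise and for WT Day 7 against Day 0 alone. Python 3.11.15 with matplotlib 3.10.9 drew the figures. Intensities in the text are as deposited, and levels of different genes are not compared. Named genes are the 6 integrin genes, Ptgfr, up to 4 called genes of each list per contrast by size of change, and the 3 genes most like each integrin gene by Pearson r. The members and the lists were chosen with earlier results of these data known. Lists are described by counts and medians, with no list test.

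The labels name no pairs, so whether equal mouse numbers pair FP-KO with WT arrays was checked by correlating deviations from group means. Every Day 0 pair gave 0.119 or more and every Day 7 pair 0.141 or more, while Day 14 pairs ran from -0.308 to 0.437. Within a genotype, Day 7 and Day 0 arrays of equal number correlated at 0.051 to 0.159. Arrays of equal number on these days thus shared part of their deviations, and the cause was not tested. The values in the text are from the fit without pairs, and fits with the number as a block are given as alternatives. Only WT Day 14 has a mouse No. 5, so the block fits in effect leave that array out. Alternatives were other floors, filters, scalings and probe set rules, array weights, a replicate block, leaving out each array, and the Day 14 sets.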

Additional observations from a re-analysis of the deposited data

Results flagged for a closer look

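The arrays of each group were compared for the 14 tested probe sets, 84 groups in all, and 2 groups held an array far from the others. By chance about 5% of groups would. Itgb5 probe set 1456195_x_at was at 1100.7 in WT Day 0 No. 3, with the other arrays of that group between 1228.6 and 1254.5. Itgb6 probe set 1432281_a_at was at 1132.8 in WT Day 7 No. 1, with the others between 838.4 and 869.0. The other Itgb6 probe set was at 1282.4 in that array and 1234.4 in WT Day 7 No. 2.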

How the results depend on the processing

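The limits are 4 or 5 arrays a group, the Day 14 sets and FP-KO Day 14 No. 2. Another is the likeness of Day 0 and Day 7 arrays of equal mouse number, which the main fit leaves out. Under 12 other settings and with each array left out, no called change of the 6 genes turned its direction, and the WT Day 7 calls of Itgav, Itgb6 and Itgb8 held with every array left out. The counts below are of the 6 genes called by limma. With 1 array left out, the count ran from 3 to 5 for WT Day 14 against Day 0, from 1 to 4 for FP-KO Day 7 against Day 0, from 0 to 1 for FP-KO Day 14 against Day 0 and from 0 to 3 for FP-KO Day 14 against Day 7. It ran from 0 to 1 for FP-KO against WT on Day 14 and for its interaction with time from Day 0, and stayed at 0 for FP-KO against WT on Day 0 and Day 7, where the number at an unadjusted p under 0.05 was 1 with all arrays. With the first set of Day 14 arrays alone, the count was 2 for FP-KO Day 14 against Day 0, 3 for WT Day 14 against Day 7 and 1 for the interaction. With the second set alone it was 1 for FP-KO Day 14 against Day 0 (Itgb3), 0 for FP-KO Day 14 against Day 7, 0 for FP-KO against WT on Day 14, and 2 for WT Day 14 against Day 0. With array weights it was 1 for FP-KO Day 14 against Day 0, 0 for FP-KO Day 14 against Day 7, 3 for FP-KO against WT on Day 14, 2 for WT Day 14 against Day 7 and 1 for the interaction. With no filter on dim genes it was 1 for FP-KO Day 14 against Day 7 and 0 for FP-KO against WT on Day 14, where the Itgb6 adjusted p was 0.0510. A common median gave 1 for FP-KO Day 14 against Day 7. The mean of all probe sets gave 2 for FP-KO Day 7 against Day 0 and 1 for FP-KO Day 14 against Day 7. Without the arrays of high 18S, chosen after seeing the data, the count was 1 for FP-KO Day 7 against Day 0, 0 for FP-KO Day 14 against Day 7 and 0 for FP-KO against WT on Day 14.

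With the mouse number as a replicate block across all days, the count was 1 for FP-KO Day 14 against Day 0 (Itgb3), 0 for FP-KO against WT on Day 14 (Itgb6 -0.79, adjusted p = 0.0651) and 1 for the interaction (Itgb3). With the number as a replicate block within a day, added after seeing the data, the interaction had 2 (Itgb3 -0.74, adjusted p = 0.0407, and Itgb6 -1.07, adjusted p = 0.0328). Neither changed a call on Day 0 or Day 7 between the genotypes. Over all genes, 1270 were called for FP-KO against WT on Day 14, but 392 without FP-KO Day 14 No. 2, 69 without the arrays of high 18S, 2 in the second set, 767 with a common median, 735 and 804 without WT Day 14 No. 2 and No. 3, 1911 with the block within a day and 2858 with array weights. FP-KO Day 14 against Day 7 (2742) ran from 369 in the second set to 4470 in the first, and was 1067 without FP-KO Day 14 No. 2. FP-KO Day 14 against Day 0 (393) ran from 101 without FP-KO Day 14 No. 1 to 1924 in the first set, WT Day 14 against Day 7 (716) from 21 in the second set to 3545 with array weights, and the interaction (376) from 0 in the second set to 1006 with array weights. FP-KO Day 7 against Day 0 (2814) had 1861 without FP-KO Day 7 No. 1 and 1529 without the arrays of high 18S. WT Day 14 against Day 0 (4664) had 2610 in the second set and 2550 without the arrays of high 18S, and no setting moved WT Day 7 against Day 0 (4236) as far as these. The cause of these shifts was not tested.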
